A study of Mus musculus with 6 samples.

Results

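The mouse genes of the MHC class II antigen presentation machinery were followed through predicted enhancer-promoter links in cultured oligodendrocyte precursor cells (OPCs) with and without interferon gamma (IFN-γ). The 9 genes were chosen by name and function. They are the class II chain genes H2-Aa, H2-Ab1 and H2-Eb1, the peptide-loading genes H2-DMa, H2-DMb1, H2-DMb2 and H2-Ob, the invariant chain gene Cd74 and the transactivator gene Ciita. They are 9 of 32049 target genes listed in the data. All 9 were listed in IFN-γ-OPCs and 6 of them in Ctr-OPCs.

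MHC class II molecules are pairs of an alpha and a beta chain that present peptides to CD4+ T cells. They are a hallmark of dendritic cells, B cells and macrophages, and many other cell types make them only after exposure to IFN-γ. The invariant chain Cd74 escorts new class II molecules to the endosome and blocks their groove, DM molecules exchange its remnant for a peptide, and DO molecules restrain DM. Ciita is the coactivator that switches class II genes on. It does not bind DNA itself but docks on a complex of RFX, CREB and NF-Y proteins, which sits on the X and Y boxes upstream of class II genes. IFN-γ in turn acts on Ciita through factors that include IRF1.

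The data were 6 HiChIP libraries for the active histone mark H3K27ac, 3 of Ctr-OPCs and 3 of IFN-γ-OPCs. HiChIP ligates chromatin regions that touch each other and then enriches for those carrying the mark. Both groups were primary OPCs from mouse brain, labelled Sox10-Cre/RCE and C57BL/6j, in which Sox10-driven Cre switches on EGFP throughout the oligodendrocyte lineage. The methods give a partly C57BL/6xCD1 background for the reporter line, pups of both sexes in the first postnatal week, pooled brains, and selection of OPCs either for GFP or for the PDGF receptor alpha. Both groups grew in proliferation medium with bFGF and PDGF-AA, and 24 h after passaging one of them received IFN-γ at 100 ng/mL. The methods give a treatment of 48 h.

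Each condition had 1 table pooled from its 3 libraries. There is therefore no replicate error for any value, no test was made between conditions, and the read depth is unknown. The tables came from the activity-by-contact (ABC) model. Activity is a signal from chromatin accessibility and H3K27ac at a regulatory element, contact is the HiChIP contact between the element and the gene start in 5 kb bins, and the ABC score is their product divided by the sum of such products over all elements around the gene. That sum is called the gene total here. A pair is an element listed with a gene, which needs a score of at least 0.02, and a connection is a pair with a score above 0.05. No pair of a gene with its own promoter is listed, and a gene is listed only if its promoter activity quantile, the rank of the promoter among all promoters of that condition from 0 to 1, is at least 0.4. A gene that is not listed missed one of these limits, so its absence is not a level of 0.

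The label of the cells was checked on their markers. All 8 OPC markers were listed in both conditions, with promoter quantiles of 0.851 to 0.995 without and 0.815 to 0.994 with IFN-γ. Of 18 microglia and macrophage markers, 9 were listed in Ctr-OPCs with quantiles of 0.455 to 0.802, and 10 in IFN-γ-OPCs with quantiles of 0.444 to 0.825. Itgam, Trem2, C1qa, Fcrls, Gpr34, Cd68 and Ptprc were in neither table. The microglia markers held 19 pairs in Ctr-OPCs against 18 in IFN-γ-OPCs, and 2 connections against 0. Over the 8 of them listed in both tables, the median log2 ratio of gene total, IFN-γ-OPCs over Ctr-OPCs, was -0.13. P2ry12, a purinergic receptor of microglia, was the highest of the 8, with a total of 0.342 without and 0.488 with IFN-γ (log2 ratio 0.51). The promoter quantile of Csf1r, a growth factor receptor of microglia and macrophages, went from 0.473 to 0.625. Aif1 and Tmem119 were listed in IFN-γ-OPCs only and Tyrobp in Ctr-OPCs only. Of 7 dendritic and B cell markers, 1 was listed in Ctr-OPCs against 3 in IFN-γ-OPCs, their pairs went from 2 to 7 and their connections from 0 to 3, of which Cd79a, a chain of the B cell receptor complex, held 2 and Flt3 held 1. Of 4 astrocyte markers, 3 were listed in both tables, with 15 pairs against 16 and 3 connections against 5. Their median log2 ratio of gene total was -0.06, with the glutamate transporter gene Slc1a3 highest at 0.36, while the promoter quantiles of Aldh1l1 and Gja1 were lower, at 0.478 against 0.620 and 0.451 against 0.590. The part of other cells in the class II values was not tested, and more responding cells cannot be told apart from a larger response per cell in pooled libraries.

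The 9 genes held 16 pairs in Ctr-OPCs against 35 in IFN-γ-OPCs, and 1 connection against 10. The number of pairs was higher in IFN-γ-OPCs for 7 genes, where 42.4% of all target genes had more, and lower for H2-DMa and H2-DMb1, where 35.7% had fewer. Connections were more numerous for 7 genes against a background of 14.9% of all target genes. H2-DMa was the 1 gene with fewer connections, against 13% of all target genes. Cd74 had 0 in IFN-γ-OPCs and was not listed in Ctr-OPCs. H2-Ob, H2-DMb2 and Cd74 were listed in IFN-γ-OPCs only, as were 19.6% of all target genes. A gene that a condition does not list was counted with 0 pairs and 0 connections there, among the members and among all target genes. H2-Ob and H2-DMb2 are among the 7 genes with more connections on that count. In Ctr-OPCs the only connection belonged to H2-DMa, and in IFN-γ-OPCs all 10 belonged to the 7 genes that had more connections. At a stricter cut-off of 0.1 each condition held 1, of H2-DMa without IFN-γ and of H2-DMb2 with it. With measured contact replaced by a power law of distance the counts were 4 against 14.

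**Figure D1:**
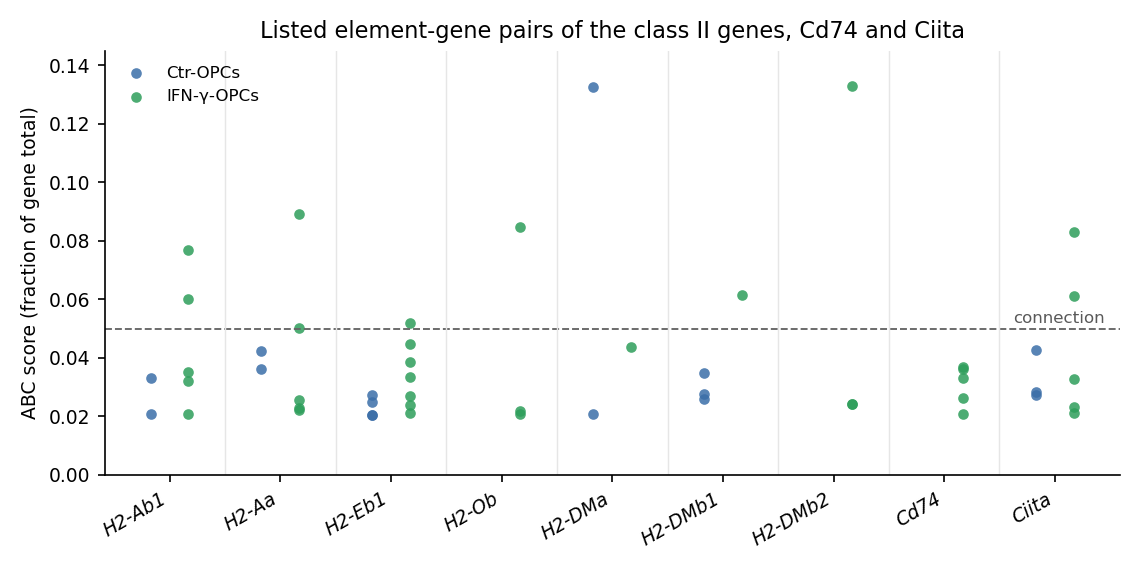
ABC score of every listed element-gene pair (points) for each gene in Ctr-OPCs (blue) and IFN-γ-OPCs (green), with the connection cut-off of 0.05 as a dashed line. In Ctr-OPCs the scores of all genes but H2-DMa lie below the line, and in IFN-γ-OPCs 10 points from 7 genes lie above it.

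The score is a share within a gene, so the gene total was read beside it as the amount of input around the gene. The classical chain genes and Ciita had higher totals in IFN-γ-OPCs. The total of H2-Ab1 was 1.36 in Ctr-OPCs against 2.29 in IFN-γ-OPCs, a log2 ratio of 0.75. H2-Aa went from 1.34 to 2.09 (log2 ratio 0.64). H2-Eb1 went from 1.42 to 2.19 (0.62), and Ciita from 0.739 to 1.17 (0.66). These 4 of the 6 genes listed in both tables were higher by a log2 ratio of 0.5 or more, as were 1.16% of the 20321 genes listed in both.

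The ratios of the DM genes were smaller. The total of H2-DMb1 went from 1.55 to 1.91, a log2 ratio of 0.30, and that of H2-DMa from 2.58 to 2.86, a log2 ratio of 0.15. Summed over deposited pairs alone, both ratios turned negative, to -0.22 and -1.66. The total of Brd2, whose start in the tables lies near that of H2-DMa, went from 2.60 to 2.82 (log2 ratio 0.12). The total of H2-DMa is thus not particular to that gene. None of the 6 members had a lower total, where 64.3% of all genes listed in both tables had one. A total lower by a log2 ratio of 0.5 or more was found for 0.3% of all genes. The median log2 ratio was 0.63 over the 6 members and -0.07 over all genes, which had an SD of 0.19. Members on chromosome 17 share elements, so their totals are not independent of each other. In IFN-γ-OPCs alone, the totals were 1.95 for H2-Ob, 2.14 for H2-DMb2 and 1.19 for Cd74.

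**Figure D2:**
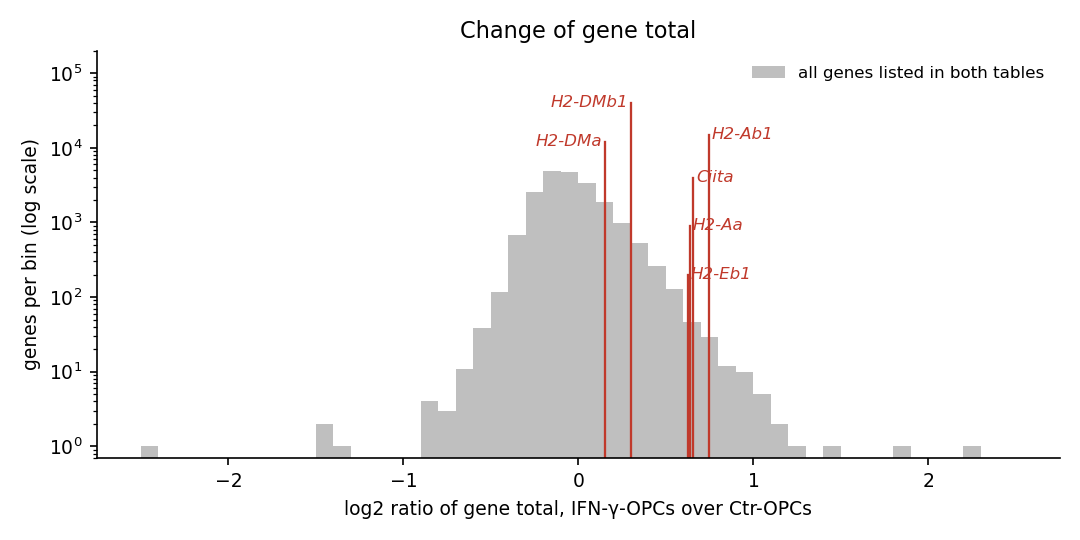
Distribution over the 20321 genes listed in both tables of the log2 ratio of gene total, IFN-γ-OPCs over Ctr-OPCs (grey bars, genes per bin on a log scale), with the 6 members listed in both tables as red lines, whose heights only separate the labels. H2-Eb1, H2-Aa, Ciita and H2-Ab1 lie between 0.62 and 0.75, in the right tail of the distribution, and H2-DMa at 0.15 lies within its bulk.

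Each total was split into the listed elements and the rest. The rest holds the own promoter, other elements of the promoter class, which these tables do not list, and all elements below the listing limit. The listed elements made up 5.37% of the total of H2-Ab1 in Ctr-OPCs against 22.5% in IFN-γ-OPCs. For H2-Aa these shares were 7.83% and 20.99%, for H2-Eb1 9.29% and 24.0%, and for Ciita 9.83% and 22.1%. As amounts, the listed part of H2-Ab1 went from 0.0733 to 0.515 and the rest from 1.29 to 1.77. For H2-Aa they went from 0.105 to 0.439 and from 1.24 to 1.65. For H2-Eb1 they went from 0.132 to 0.526 and from 1.29 to 1.66, and for Ciita from 0.0726 to 0.257 and from 0.666 to 0.908. The shares ran the other way for H2-DMa, 15.3% and 4.37%, and for H2-DMb1, 8.83% and 6.13%. The rest of the total was higher in IFN-γ-OPCs for all 6 genes, by log2 ratios between 0.32 for H2-DMa and 0.46 for H2-Ab1, where it was higher for 34.2% of all genes. Its median log2 ratio was 0.39 over the 6 genes and -0.07 over all.

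Promoter ranks were also higher. The promoter activity quantile went from 0.652 to 0.869 for H2-Ab1, from 0.634 to 0.844 for H2-Aa, from 0.649 to 0.933 for H2-Eb1 and from 0.675 to 0.817 for H2-DMb1. These 4 of 6 genes were higher by 0.1 or more, as were 8.79% of all genes. Ciita lay just under that limit, from 0.485 to 0.584. H2-DMa ranked near the top in both conditions, at 0.983 and 0.987, and so did its neighbour Brd2, at 0.969 and 0.978. Each rank goes with the start of the gene in the tables, the outermost annotated one, and ranks of other starts are not given. For H2-Ab1 and H2-DMa that start belongs to a processed transcript, and for Ciita it lies 9.69 kb upstream of the start of Ciita-208. The quantiles of the genes listed in IFN-γ-OPCs only were 0.824 for Cd74, 0.706 for H2-Ob and 0.613 for H2-DMb2. Cd74 had a promoter rank close to that of the chain genes without a single connection.

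Ciita (chr16:10480059-10528418, mm10) held the matched pair with the largest difference in contact. Its start in the tables is the outermost annotated one, and the gene is known to be read from several alternative promoters, of which the one called promoter IV answers to IFN-γ. The highest-scoring element of Ciita in IFN-γ-OPCs, chr16:10489531-10490030, covers the annotated starts of 3 coding transcripts, Ciita-208, Ciita-203 and Ciita-204, the first of them at position 10489746. It lies 9.72 kb downstream of the start used in the tables. Its activity was 1.74 in IFN-γ-OPCs and 0.727 at the overlapping element in Ctr-OPCs (chr16:10489600-10490533), its contact 0.0556 against 0.0278, and its score 0.0829 against 0.0274. The activity was 2.39-fold and the contact 2.00-fold higher, but the centres of these overlapping elements fell in different 5 kb bins, so the contacts were read from different bins.

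The sequence just before the start at 10489746 is shown because it holds, within a short stretch, 3 motifs known from IFN-γ-responsive promoters. The capitals mark a GAS match (TTCNNNGAA, the gamma-activated site), an E box (CACGTG, the USF1 site) and an IRF element match (GAAANNGAA), in this order. The sequence is the plus strand of the GRCm38 reference, chr16:10489604-10489745, ending at the base before the start.
Ciita: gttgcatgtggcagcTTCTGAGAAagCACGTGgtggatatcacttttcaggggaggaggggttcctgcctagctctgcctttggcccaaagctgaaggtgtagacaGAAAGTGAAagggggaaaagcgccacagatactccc
Read on both strands, each of these motifs is common on its own. Of the 22029 elements of 500 bp in the IFN-γ-OPC table, 15.7% held a GAS match, 7.77% an E box and 18.3% an IRF element match. A match is a description of the letters and not a measured binding site.

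The other connection of Ciita was with an intergenic element 27.4 kb upstream, chr16:10452455-10452954. It had the highest activity of all elements of the 9 genes in IFN-γ-OPCs, 5.94, which lay at the 99.9th percentile of all elements, against 2.15 in Ctr-OPCs. The activity was 2.76-fold higher while the contact with Ciita was 0.0120 against 0.0146, and the score was 0.0612 against 0.0426. This element was listed with 3 genes in Ctr-OPCs, the others being Nubp1 and Tvp23a, and with 8 genes in IFN-γ-OPCs. Elements at 3.63 kb and 11.2 kb upstream of Ciita (scores 0.0327 and 0.0210) were listed in IFN-γ-OPCs only. Each table also held 1 intronic element of Ciita, with scores of 0.0283 in Ctr-OPCs against 0.0230 in IFN-γ-OPCs, and these did not overlap.

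H2-Ab1 (chr17:34257689-34269419), the beta chain of the I-A molecule, had no connection in Ctr-OPCs against 2 in IFN-γ-OPCs, both inside the gene. Its start in the tables, at 34257689, belongs to a processed transcript, and the protein-coding transcripts start 5.52 to 5.56 kb further downstream. The element chr17:34262979-34263478 covers these coding starts. Its activity was 2.43 in IFN-γ-OPCs against 0.986 in Ctr-OPCs, its contact with the listed start was 0.0567 against 0.0458, and its score was 0.0601 against 0.0331. The top-scoring element of H2-Ab1, chr17:34261470-34261969, lies in an intron upstream of the coding starts. Its activity was 3.10 in IFN-γ-OPCs against 0.614 in Ctr-OPCs, a 5.05-fold difference, and its score was 0.0769 against 0.0206. Both elements share a 5 kb bin and so have the same contact, which was 1.24-fold higher in IFN-γ-OPCs.

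Both H2-Ab1 elements and the most active element of the DM genes in IFN-γ-OPCs held the spaced pair of motifs known from class II promoters, and these stretches are shown beside the promoters of H2-Eb1, H2-DMb1 and H2-Aa. The capitals mark a match to the core of the X box (AGNNACNGA) and, downstream of it, the Y box (CTGATTGG) or at least its CCAAT box letters (ATTGG). All are written 5′ to 3′ from GRCm38, the promoters from RefSeq, which matched 6 of the 9 genes and not H2-Ab1, Ciita and Cd74. The stretch of H2-DMb1 is upstream of its RefSeq start but lies downstream of its start in the tables, at 34153072.
H2-Ab1, coding start, chr17:34263134-34263201, plus strand: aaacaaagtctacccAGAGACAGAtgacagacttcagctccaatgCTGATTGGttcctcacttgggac
H2-Ab1, intron, chr17:34261670-34261738, minus strand: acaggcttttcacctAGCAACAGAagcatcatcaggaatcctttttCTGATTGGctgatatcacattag
H2-DMa, coding start, chr17:34135498-34135566, plus strand: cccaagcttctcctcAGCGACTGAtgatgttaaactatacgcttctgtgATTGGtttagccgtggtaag
H2-Eb1, promoter, chr17:34305760-34305827, plus strand: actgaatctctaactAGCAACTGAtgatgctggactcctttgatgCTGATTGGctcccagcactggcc
H2-DMb1, promoter, chr17:34153081-34153149, plus strand: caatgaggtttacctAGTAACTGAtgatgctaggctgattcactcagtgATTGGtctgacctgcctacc
H2-Aa, promoter, chr17:34287852-34287919, minus strand: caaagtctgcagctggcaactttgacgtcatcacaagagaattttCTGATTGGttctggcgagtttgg
In the first 5 sequences the X box core starts 33 or 34 bases before the ATTGG letters on the same strand. The H2-Aa promoter holds the Y box without the core letters. Of the 7 RefSeq promoter windows of the members, 2 held the pair, those of H2-DMb1 and H2-Eb1, and 3 held an X box core match. Those of H2-DMa, H2-DMb2 and H2-Ob held no pair and are not shown.

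Held to a narrow range of spacing, the pair was rarer than its parts, which such a rule makes likely. An X box core match stood in 32.3% of the 22029 elements of 500 bp in the IFN-γ-OPC table and an ATTGG match in 46.5%, but both on one strand with starts 33 to 35 bases apart in 14 elements, or 0.0636%. Of these 14, 3 were elements of the 9 genes, out of their 16 elements of this length. Another of the 14 was listed with H2-Pa. Among 32851 promoters of 300 bp the pair stood in 11, or 0.0335%, and these included H2-DMb1, H2-Eb1 and H2-Eb2. Single matches were found in 17.7% of promoters for the X box core, 4.10% for the Y box and 37.4% for ATTGG. The range of spacing was chosen after the matches had been seen, so these counts do not test whether the pair marks the 9 genes. The activity of the 3 elements with the pair was 5.05-fold, 2.46-fold and 1.29-fold higher in IFN-γ-OPCs. The element with the largest fold among those of the 9 genes, 6.37 for chr17:34218623-34219122, listed with H2-Ob, was not among the 14.

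H2-Aa (chr17:34282744-34287823, minus strand), the alpha chain of I-A, also went from 0 to 2 connections. The stronger one was with an intergenic element 3.96 kb upstream, chr17:34291538-34292037. Its activity was 2.70 in IFN-γ-OPCs and 1.05 at the overlapping element in Ctr-OPCs, its contact with H2-Aa 0.0692 against 0.0538, and its score 0.0892 against 0.0422. The other connection, with chr17:34296002-34296501 in an intron of Gm20513, had an activity of 3.43 and a score of 0.0502, just above the cut-off. No element of any gene overlapped it in Ctr-OPCs. An element downstream of the start, chr17:34280575-34281074, was the exception among the chain genes. Its activity was 0.760 in IFN-γ-OPCs against 0.838 in Ctr-OPCs, and its score was 0.0222 against 0.0361.

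H2-Eb1 (chr17:34305867-34316674), the beta chain of the I-E molecule, had 4 pairs in Ctr-OPCs against 7 in IFN-γ-OPCs, the largest number among the 9 genes. Its only connection, with the same intronic Gm20513 element 9.62 kb upstream, scored 0.0519 and also lay close to the cut-off. An element 0.947 kb upstream of its start, chr17:34304671-34305170, had an activity of 1.98 and a score of 0.0447 and overlapped no Ctr-OPC element. H2-Eb1 was also listed with both H2-Ab1 elements shown above, at 42.6 and 44.1 kb, with scores of 0.0210 and 0.0269. At the intergenic element it shares with H2-Aa the contact with H2-Eb1 was lower in IFN-γ-OPCs, 0.0273 against 0.0368, while the contact with H2-Aa was higher.

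In IFN-γ-OPCs the DM genes shared the element chr17:34135297-34135796. It covers the starts of the coding transcripts H2-DMa-205 and H2-DMa-207, 16.1 kb downstream of the start of H2-DMa in the tables, and was listed with H2-DMa, H2-DMb1, H2-DMb2 and H2-Ob. In Ctr-OPCs the overlapping element was listed with H2-DMb1 alone among the 9 genes. Its activity was already 3.19 in Ctr-OPCs and was 4.11 in IFN-γ-OPCs, a 1.29-fold difference. For H2-DMb1 (chr17:34153072-34160230) the contact with it was 0.0285 in IFN-γ-OPCs against 0.0170 in Ctr-OPCs, 1.68-fold higher, and the score 0.0613 against 0.0349. For H2-DMb2 (chr17:34143307-34151555), not listed in Ctr-OPCs, the score was 0.133, the highest of any of the 9 genes in IFN-γ-OPCs. H2-DMb1 and H2-DMb2 are close paralogs that lie side by side, and reads at their bodies and starts may be split between them.

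H2-DMa (chr17:34119541-34139101), the alpha chain of DM, was the gene with a connection in Ctr-OPCs only. In Ctr-OPCs it was connected with chr17:34121162-34121661, an element 1.87 kb downstream of its start that overlaps a UTR of Brd2, with an activity of 4.68 and a score of 0.133. This element was listed with 13 genes in Ctr-OPCs, H2-DMb1 among them with a score of 0.0276, and no element of any gene overlapped it in IFN-γ-OPCs. The tables list no element of the promoter class, and whether the element had been assigned to that class in IFN-γ-OPCs was not tested. The total of H2-DMa was nevertheless 2.86 in IFN-γ-OPCs against 2.58. Its only pair there, with the element over its coding starts, scored 0.0437.

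H2-Ob (chr17:34238903-34254414), the beta chain of DO, had 3 pairs and 1 connection in IFN-γ-OPCs only. The connection was with an intergenic element 3.71 kb upstream, chr17:34234941-34235440, with a modest activity of 1.05 and a contact of 0.157, the highest contact of any pair of the 9 genes. The score was 0.0848, and the score that replaces the measured contact by a power law of distance was 0.0427, below the cut-off. The sequence of this element had 2390 other copies in the genome at 90% identity over at least 100 bp. Of the 26 elements of the 9 genes in IFN-γ-OPCs, 24 had no such copy. The part of repeated sequence in the contact of H2-Ob was not tested. The other pairs of H2-Ob were with active elements further away, at 20.0 kb (activity 3.78) and 103 kb (activity 4.11), with scores of 0.0208 and 0.0218. The first of these had an activity of 0.593 in Ctr-OPCs, where it was not listed with H2-Ob.

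Across the 8 elements that could be matched between the tables for the same gene, 7 had a higher activity in IFN-γ-OPCs, as did 41.4% of the 17223 matched elements, and 6 were higher 2-fold or more, as were 2.73%. One of the 6, an H2-Eb1 element (chr17:34312946-34314598, 1653 bp), overlapped 2 shorter Ctr-OPC elements and was matched to the one of 691 bp. Its activity of 1.57 was 2.63-fold that of the matched element (0.596) and 1.31-fold the sum of both (1.19). With activity summed over all overlapping elements, 5 of the 8 were higher 2-fold or more, as were 2.31% of all matched elements. Of the other 7 matched elements, 5 had the same length in both tables and 2 were longer in Ctr-OPCs. Activity had a median log2 ratio of 1.33 over the 8 elements and -0.09 over all matched elements. Contact moved less. Over the 9 matched pairs the median log2 ratio of contact was 0.31, against 0.05 over all 29858 matched pairs. It was higher for 7 pairs and lower for 2, where 54.6% of all matched pairs were higher. The 2 H2-Ab1 pairs read the same bin, so both carry the same log2 ratio of 0.31, which is also the median. The score was higher for 8 of the 9 pairs, with the element downstream of H2-Aa as the exception, and for 51.4% of all matched pairs. The H2-Eb1 element that overlapped 2 Ctr-OPC elements is counted here as higher, with a score of 0.0385 against 0.0204 at the matched one, while the other had a score of 0.0205. Its median log2 ratio was 0.86 over the 9 pairs and 0.02 over all. The H2-DMb1 pair and the Ciita pair at the coding starts were those where contact was 1.68-fold or more higher, and for the remaining pairs the contact ratio lay between 0.742 and 1.29.

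**Figure D3:**
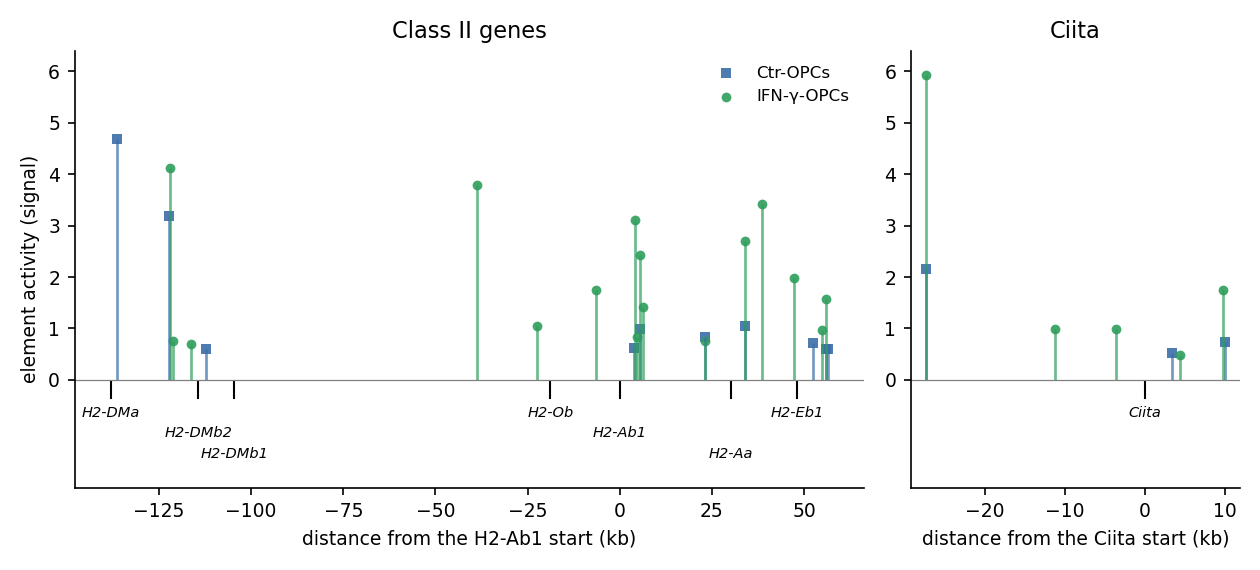
Activity (signal) of the elements listed with the class II genes (left, distance in kb from the H2-Ab1 start) and with Ciita (right, distance in kb from its start) in Ctr-OPCs (blue squares) and IFN-γ-OPCs (green circles). Ticks under the axis mark the starts in the tables, and 1 Ctr-OPC element of H2-DMa, 80.9 kb away from it with an activity of 3.18, is outside the plotted range. At H2-Ab1, H2-Aa and H2-Eb1 the Ctr-OPC elements stay at or below 1.05 and IFN-γ-OPC elements reach 3.43, and near the DM genes both conditions hold elements above 3.

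The elements of the 9 genes were more numerous in IFN-γ-OPCs, 26 against 14, and their median activity was 1.49 against 0.782. Over all elements of the tables the medians were 0.803 and 0.866. Each median covers the elements that passed the listing limit in its own condition. That limit is a share of the gene total, so with a higher total a pair needed a larger product to be listed. The part of this limit in the difference between the medians was not tested. Of the 26 elements, 15 overlapped no Ctr-OPC element of any gene, as did 44.5% of all elements in the IFN-γ-OPC table. Listed with 2 or more target genes of any kind were 16 of the 26, where 39.7% of all elements were, against 5 of the 14 in Ctr-OPCs, where 40.1% were. The element over the H2-DMa coding starts was listed with 4 of the genes and the intronic H2-Ab1 element with 3. Outside the set, Gm20513, whose annotated body spans the region upstream of H2-Eb1, shared the most elements, 7, and was not listed in Ctr-OPCs. Mir5107 shared 3 elements, and Btnl2, Gm8731 and H2-Eb2 shared 2 each.

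Elements over an own annotated start were not counted as promoters in these tables. They made up 2 of the 16 pairs in Ctr-OPCs and 3 of the 35 in IFN-γ-OPCs, and 2 of the 10 connections there. Over all genes such elements made up 2.65% of pairs in Ctr-OPCs against 2.37% in IFN-γ-OPCs, and 5.54% of connections in IFN-γ-OPCs. Without them the 9 genes still had 8 connections in IFN-γ-OPCs against 1 in Ctr-OPCs.

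Higher gene totals extended over the neighbourhood. All 12 other target genes that both tables list within 150 kb of the H2-Ab1 start had a higher total in IFN-γ-OPCs, with log2 ratios of 0.12 to 0.64 and a median of 0.43. Between 150 and 1000 kb, 36 of 66 genes were higher, with a median of 0.02. Neighbouring genes share elements, so these are not independent counts. Of the fixed list of 11 class II neighbours, 7 were listed in both tables and all had higher totals, with 2 of them by 0.5 or more. H2-Eb2, H2-Ea (H2-Ea-ps in the annotation) and Gm20513 were listed in IFN-γ-OPCs only and Notch4 in Ctr-OPCs only. Psmb8, a subunit of the immunoproteasome, went from 1.66 to 2.59 (log2 ratio 0.64), Tap2, a chain of the peptide transporter of the class I pathway, from 1.60 to 2.41 (0.59), and Btnl2, a butyrophilin-like gene, from 1.21 to 1.67 (0.46).

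**Figure D4:**
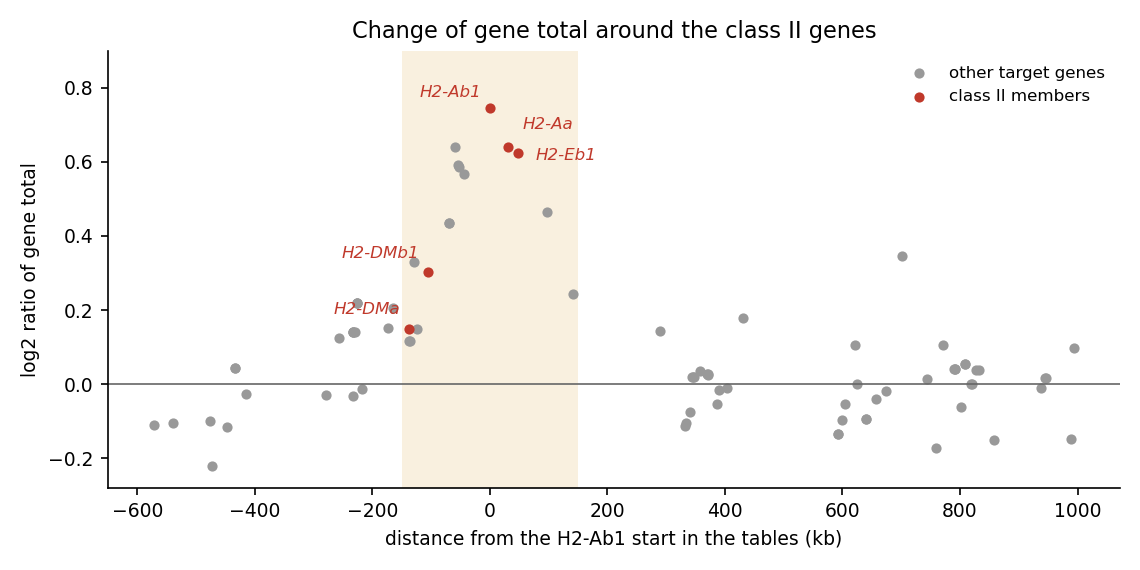
Log2 ratio of gene total, IFN-γ-OPCs over Ctr-OPCs, for each target gene listed in both tables within 1000 kb of the H2-Ab1 start, against its distance from that start (kb). The class II members (red) and the other genes within 150 kb (shaded) lie above 0, with H2-Ab1 highest at 0.75, and genes further away scatter around 0.

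The factors that act on these genes were read from fixed lists. Among 7 genes for the proteins that bind the X and Y boxes, Rfxap, Rfxank, Creb1 and Nfyc were listed in both tables, with log2 ratios of gene total between -0.09 and 0.02. Rfx5, Nfya and Nfyb were in neither table. Among genes that act between the IFN-γ receptor and Ciita, Irf1 was listed in IFN-γ-OPCs only, with 7 pairs and 1 connection. Its promoter quantile there was 0.992. Usf1, whose protein binds the E box, was listed in Ctr-OPCs only, with 1 pair and a quantile of 0.937. Jak2, a kinase of the IFN-γ receptor, went from 0.651 to 0.893 (log2 ratio 0.45), Irf2 had a log2 ratio of 0.11 and the receptor chain Ifngr2 one of -0.08. Among 8 genes of class II antigen processing, 2 were listed in both tables, Lgmn and Ctsb, both lysosomal proteases, with log2 ratios of -0.07 and 0.02. The cathepsin genes Ctsl and Ctsd were listed in Ctr-OPCs only, and Marchf8 in IFN-γ-OPCs only.

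Cd74, the invariant chain, was listed in IFN-γ-OPCs only. Its 5 pairs had scores between 0.0209 and 0.0369 and none reached the cut-off. The highest score came from an intergenic element 2.00 kb upstream of its start, with an activity of 0.957. This element had 23901 other copies in the genome by the same count as for H2-Ob. Its 2 intronic elements had activities of 0.939 and 1.20. The most active element, 29.3 kb upstream in a UTR of Rps14, had an activity of 2.68 against 3.03 at the overlapping element in Ctr-OPCs, where it was not listed with Cd74. The remaining element, 28.2 kb downstream of the start, had an activity of 2.27 against 1.19 in Ctr-OPCs, a 1.91-fold difference, but it was also 1.76-fold longer than the overlapping Ctr-OPC element, and it was not listed with Cd74 there either. With contact replaced by the power law, 3 of the pairs of Cd74 passed the cut-off.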

How the data were processed

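Per the labels and the methods, the authors used HiC-Pro to align HiChIP reads to mm10 and drop duplicates, then ran the ABC model with H3K27ac CUT&RUN and ATAC-seq data from the matching condition. The deposited ABC score is a fraction of the gene total. Element activity is a deposited signal, and the promoter quantile, contact, its product with activity and the power-law score are deposited as score values. How activity and contact were scaled between conditions is not given in the sources used here. Depth is unknown, so no interval is given.

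Gene totals were obtained by dividing that product by the ABC score. Pairs were matched by mutual best overlap of at least 1 bp within a gene. Names, annotation and transcript starts came from GENCODE M21 (GRCm38). Motifs were searched on both strands, and copies were counted with BLAST 2.17.0. The members and lists were chosen with earlier results of these data known. Named genes were all 9 members, up to 3 genes by size of the log2 ratio of gene total from each list of neighbours, promoter factors, IFN-γ signalling and antigen processing, Irf1 and 1 further gene that is not reported here, and the 5 genes sharing most elements with members. Any other gene was chosen with its values known. The procedures were tested on simulated data. The shorter tables and interaction lists among the deposited files were not used here. Python 3.11.15, pandas 2.3.3, NumPy 2.4.6 and matplotlib 3.10.9 were used.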

Additional observations from a re-analysis of the deposited data

How the results depend on the processing

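No paired analysis was possible because the values come from 1 pooled table per condition, and for the same reason no library could be left out. Counting every deposited pair, the 9 genes had 16 connections without and 35 with IFN-γ. With the power-law score it was 4 and 14, and at a cut-off of 0.1 it was 1 in both conditions. Equal numbers of top-scoring pairs gave 1 and 9. The median log2 ratio of gene total over members was 1.91 with deposited pairs only and 0.69 after dividing by the median total. With deposited pairs only, the log2 ratio turned to -1.66 for H2-DMa and to -0.22 for H2-DMb1. Over all deposited pairs the change of H2-DMb1, 1 connection more, turned to -2. Of the other values of single genes, 22 kept their direction, and in 8 a gain in connections fell to 0. This held for H2-Ab1, H2-Aa, H2-Eb1, H2-Ob, H2-DMb1 and Ciita at the cut-off of 0.1, and for H2-Ob and H2-DMb1 with the power-law score, where the H2-DMb1 pair already had 0.0559 in Ctr-OPCs. The other 6 moved without reversing. The cause was not tested. Division by the table medians shifted all genes by a log2 ratio of 0.05 and all elements by 0.11, and the median log2 ratio of activity was then 1.44. It was 1.28 when elements were matched whatever their gene, and also with activity summed over all overlapping elements. With a reciprocal overlap of at least 50% it stayed at 1.33. The median log2 ratio of contact was 0.23 over pairs in the same 5 kb bin. By shared bins rather than overlap, 11 IFN-γ-OPC elements had no Ctr-OPC element. Alternatives without own transcript starts, matched with any gene, summed over overlapping elements or in the same bin were chosen after seeing the data. With pooled tables and unknown depth, single pairs near the cut-off, such as those of H2-Aa and H2-Eb1 with the Gm20513 element, carry no error estimate.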
